A study of Mus musculus with 3 samples.

Results

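The 10 genes described here, Trem2, Tyrobp, Gpnmb, Apoe, Lpl, Spp1, Cd9, Fabp5, Lgals3 and Plin2, encode proteins of the macrophage lipid-sensing and lipid-handling machinery. They were chosen by gene symbol and are 10 of the 55536 genes in the deposited tables, of which 46615 had a mean length of at least 300 nt. All 10 were measured in all 3 libraries. The libraries came from primary macrophages grown from the bone marrow of C57BL/6J mice. The cells had received 100 ng/ml Lipid A, the TLR4-activating moiety of lipopolysaccharide, 25 min before fractionation. RNA of the chromatin fraction, which is enriched for transcripts still being made or not yet released, was depleted of ribosomal RNA and sequenced. The labels give no genetic alteration and neither age nor sex, and there is 1 group, so nothing below compares stimulated with unstimulated cells. The 3 libraries are labelled biological replicates with a biosample record each and 1 shared donor record, and nothing says whether they came from separate animals or cultures. The p-values below therefore rest on the spread between these samples, which may be technical. With 3 libraries that spread is largely pooled over genes and not measured for each gene alone. The starting RNA differed between them by label: replicate 1 had 1000 ng, replicate 3 had 500 ng and replicate 2 had 250 ng.

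TREM2 is a surface receptor of macrophages and microglia that binds lipids and lipoproteins, apolipoprotein E among them, and signals through the adaptor TYROBP (DAP12), which recruits the kinase SYK. In tissue macrophages that take up lipid, such as those of atherosclerotic plaques, obese adipose tissue and fibrotic liver, Trem2 is found together with Gpnmb, Spp1, Cd9, Fabp5, Lgals3, Lpl and Plin2, a set often called the lipid-associated macrophage signature. Macrophages grown in culture from marrow express many of these genes as well.

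Promoter sequences are shown for Trem2 and Gpnmb, which name the set, and for Spp1 and Plin2, which moved in opposite directions between the libraries (below). RefSeq promoter entries of GRCm38.p6 matched 7 of the 10 genes, and none was used for Tyrobp, Lpl and Fabp5. Each stretch holds the 250 bases before the RefSeq start, on the strand of the gene. Motif matches are in capitals.
Trem2: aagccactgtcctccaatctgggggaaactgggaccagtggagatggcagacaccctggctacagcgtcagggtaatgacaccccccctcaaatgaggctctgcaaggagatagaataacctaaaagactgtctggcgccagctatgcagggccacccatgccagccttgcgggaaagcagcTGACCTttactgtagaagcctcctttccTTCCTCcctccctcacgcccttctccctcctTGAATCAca
Gpnmb: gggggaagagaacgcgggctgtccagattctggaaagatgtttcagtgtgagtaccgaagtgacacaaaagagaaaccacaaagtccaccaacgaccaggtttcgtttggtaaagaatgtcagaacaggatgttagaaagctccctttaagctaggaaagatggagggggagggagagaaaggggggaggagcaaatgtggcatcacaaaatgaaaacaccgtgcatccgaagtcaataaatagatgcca
Spp1: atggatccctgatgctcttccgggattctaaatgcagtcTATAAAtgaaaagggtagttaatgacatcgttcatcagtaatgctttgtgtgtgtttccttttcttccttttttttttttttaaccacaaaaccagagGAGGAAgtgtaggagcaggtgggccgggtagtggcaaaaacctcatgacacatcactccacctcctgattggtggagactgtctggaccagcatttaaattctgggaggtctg
Plin2: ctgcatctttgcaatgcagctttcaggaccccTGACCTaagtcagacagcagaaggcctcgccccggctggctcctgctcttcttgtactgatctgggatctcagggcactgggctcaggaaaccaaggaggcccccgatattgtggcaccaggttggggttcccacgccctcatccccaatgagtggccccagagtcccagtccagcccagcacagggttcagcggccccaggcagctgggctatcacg
The stretches lie at chr17:48346151-48346400 (plus strand), chr6:49036268-49036517 (plus), chr5:104434861-104435110 (plus) and chr4:86670060-86670309 (minus). The motifs searched on both strands were GAGGAA (the core bound by PU.1, the lineage factor of macrophages), TGANTCA (AP-1), CACGTG (the E-box bound by MITF and TFEB), AGGTCA (the nuclear receptor half-site) and TATAAA. Positions count back from the base before the RefSeq start, which is -1, to the first base of the match. The Trem2 stretch held the nuclear receptor half-site at -68 (as TGACCT), the PU.1 core at -40 (as TTCCTC) and the AP-1 motif at -9 (as TGAATCA), none overlapping another. The Spp1 stretch held TATAAA at -211 and the PU.1 core at -113. The Plin2 stretch held 1 half-site at -218 (as TGACCT). The Gpnmb stretch held none of these motifs. Among 32851 promoters of the same length, 23.2% held GAGGAA, 14.0% AGGTCA, 12.4% TATAAA, 6.75% TGANTCA and 6.02% CACGTG, so a match is a description only.

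The intron ends below are shown because most Trem2 and Fabp5 reads were assigned to transcripts that keep these introns. They were read from GENCODE M21 transcript sequences (GRCm38) and span 24 bases on each side of a boundary, with intron bases in capitals and exon bases in lower case.
Trem2 intron 1 donor: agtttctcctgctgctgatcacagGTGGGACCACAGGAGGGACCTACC
Trem2 intron 1 acceptor: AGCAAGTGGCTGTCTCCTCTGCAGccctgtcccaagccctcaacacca
Fabp5 intron 1 donor: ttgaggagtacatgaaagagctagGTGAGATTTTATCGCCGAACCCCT
Fabp5 intron 1 acceptor: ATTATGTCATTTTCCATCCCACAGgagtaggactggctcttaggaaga
Fabp5 intron 2 donor: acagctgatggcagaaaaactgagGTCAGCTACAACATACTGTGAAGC
Fabp5 intron 2 acceptor: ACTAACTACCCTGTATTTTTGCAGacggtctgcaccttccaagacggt
Trem2 intron 1 lies at chr17:48346596-48348456 and is 1861 nt long. Fabp5 introns 1 and 2 lie at chr3:10012719-10014970 and chr3:10015144-10015471 and are 2252 and 328 nt long. All 3 introns begin with GT and end with AG, the usual splice site bases.

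Expected counts on genes totalled 13318787, 19162053 and 19147923 in replicates 1, 2 and 3. The 10 genes together took 0.406%, 0.354% and 0.351% of them, and Gpnmb alone 73.0%, 65.2% and 73.3% of the counts of the 10. A gene with 0 counts could lie at up to 0.225, 0.157 and 0.157 CPM (its count relative to the library's total), the limit that 3 counts set, which covers counting error only. Replicate 1 stood apart in its ribosomal DNA locus transcripts, which took 8.59% of its gene counts against 27.2% and 23.2% in replicates 2 and 3. The label of the cells was checked on 10 macrophage markers. All 10 reached 10 TPM (abundance per transcript length, here scaled over genes of at least 300 nt), with a median of 261.5 TPM, and Ptprc, Csf1r and Cd14 were the highest.

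All 10 genes had a mean level of 10 TPM or more, which 8186 of the 46615 genes reached. Cd9 lay below it in replicate 3 (8.46 TPM). The median of the 10 genes was 160 TPM. By comparison, 11060 of 21898 protein-coding genes (50.5%) reached 1 TPM, and their median was 16.4 TPM. The levels spanned from Gpnmb, among the most abundant transcripts of the chromatin fraction, to Cd9, below the middle of the protein-coding genes that reached 1 TPM. Since these are bulk samples, fewer cells of a type and less RNA per cell cannot be told apart for any level below.

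Trem2, the lipid-sensing receptor (chr17:48346401-48354147, plus strand), stood at 107.9, 177.9 and 177.2 TPM in replicates 1, 2 and 3 (154.3 ± 40.2, SD, n = 3), above 93.5% of the protein-coding genes that reached 1 TPM. Replicate 1 was the low library and the others lay together. TPM divides by a length averaged over the transcripts in use, and this length was 3776, 2732 and 2525 nt for Trem2 in replicates 1, 2 and 3. Without that division the gap was smaller, at 167.7, 212.6 and 184.5 CPM.

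Tyrobp, the adaptor that carries the TREM2 signal (chr7:30413760-30417585, plus), was measured at 52.8, 45.3 and 47.7 TPM (48.6 ± 3.84, n = 3). The libraries were close to each other, on 112, 140 and 146 counts. On this per-length scale the adaptor lay below its receptor in each library. In the second deposited quantification, described below, that order turned in replicate 1, with 89.6 TPM for Tyrobp and 75.6 for Trem2.

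Gpnmb, a lysosomal and surface glycoprotein of lipid-laden macrophages (chr6:49036546-49070929, plus), reached 3004, 2173 and 2431 TPM (2536 ± 425.7, n = 3) from 39450, 44287 and 49304 counts. It ranked 18th of the 46615 genes by mean level and 16th within each library. It was 5.86-fold above Lgals3, the next gene of the set, and the ranges of the pair did not overlap.

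Among the secreted proteins, Spp1 (osteopontin, a ligand of integrins and CD44; chr5:104435118-104441050, plus) stood at 656.9, 229.8 and 276.6 TPM (387.7 ± 234.3, n = 3). Replicate 1 was the high library, 2.86-fold above the lowest, and the mean of the others was 253.2 TPM. All of the annotated gene Gm42793 (1252 bp, same strand, chr5:104435121-104436372) lies inside Spp1, and it was assigned 3905, 2740 and 3298 counts beside 4814, 2601 and 2976 for Spp1. The deposited posterior SD of the Spp1 count was 4, 3.97 and 3.55 counts, so the split was narrow within the authors' model. The tables do not tell unspliced Spp1 RNA in that stretch from RNA of Gm42793.

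Apoe, the apolipoprotein that carries cholesterol out of macrophages and binds TREM2 (chr7:19696109-19699188, minus), stood at 68.2, 93.4 and 98.2 TPM (86.6 ± 16.1, n = 3), lowest in replicate 1. Lpl, the lipase that releases fatty acids from lipoprotein triglyceride (chr8:68880491-68907448, plus), stood at 70.1, 173.1 and 107.4 TPM (116.8 ± 52.2, n = 3). All 3 Lpl libraries lay apart, with replicate 2 highest and replicate 1 lowest.

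Inside the cell, Plin2, the perilipin that coats lipid droplets in most cells other than fat cells (chr4:86648386-86670060, minus), stood at 166, 458.1 and 198.2 TPM (274.1 ± 160.2, n = 3). Replicate 2 was the high library, 2.76-fold above the lowest, and without it the mean was 182.1 TPM. Fabp5, a fatty acid chaperone of the cytosol (chr3:10012548-10016607, plus), stood at 171.2, 173 and 152.5 TPM (165.6 ± 11.4, n = 3). Its libraries lay close together in TPM, which is not scaled further between libraries. With scaling between libraries its log2 ratio was -0.47 for replicate 1 over replicate 2 and -0.10 over replicate 3. The median absolute values over genes tested were 0.43 and 0.38.

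Lgals3 (galectin-3, a lectin recruited to damaged lysosomes; chr14:47367751-47386160, plus) stood at 457.5, 440.5 and 399.5 TPM (432.5 ± 29.8, n = 3). It was the second gene of the set by mean level, with a narrow spread. Cd9, a tetraspanin of the cell surface and of extracellular vesicles (chr6:125460266-125494791, minus), was the lowest member at 10.8, 10.8 and 8.46 TPM (10 ± 1.34, n = 3), on 54.96, 78.9 and 63.99 counts. It lay above 37.8% of the protein-coding genes that reached 1 TPM. The antisense gene Gm28809 and the opposite-strand gene Gm26728 overlap Cd9, with 2 to 6 and 1.01 to 4.04 counts per library.

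The order by mean level was Gpnmb, Lgals3, Spp1, Plin2, Fabp5, Trem2, Lpl, Apoe, Tyrobp and Cd9. Gpnmb was first, and Apoe, Tyrobp and Cd9 were the last 3 in that order, in 3 of 3 libraries. The steps in this order that separated ranges with no overlap were those between Gpnmb and Lgals3, between Apoe and Tyrobp (1.78-fold) and between Tyrobp and Cd9 (4.86-fold). From Lgals3 to Apoe the ranges of neighbours overlapped, so the middle of the order was not resolved beyond the spread between libraries. Trem2 lay above Lpl (1.32-fold) and Lpl above Apoe (1.35-fold) in 3 of 3 libraries all the same, whereas Lgals3 lay above Spp1, Spp1 above Plin2 and Plin2 above Fabp5 in 2 of 3, and Fabp5 above Trem2 in 1 of 3. With 3 libraries the smallest p of a two-sided exact permutation test is 0.25, so no step was tested. The coefficient of variation was 60.4% for Spp1, 58.4% for Plin2, 44.6% for Lpl and 26.1% for Trem2, against a median of 20.8% over the 8186 genes with at least 10 TPM. It was below that median for the other 6 genes, with 6.86% for Fabp5 and 6.90% for Lgals3. These values rest on TPM, which is not scaled further between libraries, and scaling changes their order. With it the log2 ratio of replicate 1 over replicate 2 was -1.79 for Plin2, -1.46 for Lpl and 1.18 for Spp1. It was -0.80 for Apoe, -0.58 for Trem2 and -0.47 for Fabp5, against a median absolute value of 0.43 over genes tested.

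**Figure D1:**
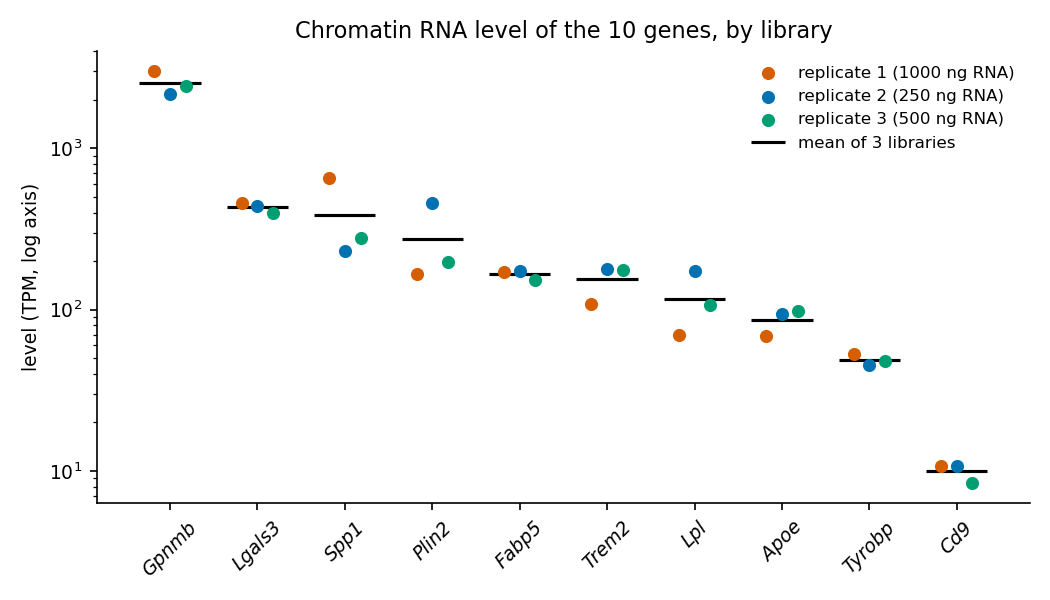
Level of each of the 10 genes in TPM (vertical log axis) in each library (coloured points, with the labelled RNA amount), with the mean of the 3 libraries as a bar. Gpnmb lies at 2173 TPM or more in every library, Cd9 near 10 TPM, and the points of Spp1, Plin2 and Lpl are the widest apart.

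For Trem2 and Fabp5, most reads were assigned to transcripts annotated as keeping an intron. The retained-intron share of Trem2 (percent of the gene's transcript counts) was 93.4%, 81.5% and 77.7% in replicates 1, 2 and 3 (84.2% ± 8.21, n = 3), with 95% Wilson intervals of 92.3 to 94.3%, 80.2 to 82.6% and 76.3 to 79.0% that cover counting error only. That of Fabp5 was 87.5%, 91.2% and 88.6% (89.1% ± 1.91, n = 3). These shares exceeded those of 95.2% and 96.7% of the 6733 genes that have such a transcript and at least 50 counts, whose median share was 26.2%. A share of counts favours long transcripts. As a share of the gene's TPM, which corrects for length, the retained-intron transcripts took 52.2% of Trem2 and 67.4% of Fabp5 (means of 3 libraries).

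The Trem2 share came from 1 transcript, Trem2-203 (4784 nt), with 2086, 3319 and 2743 counts. It keeps intron 1, whose ends are printed above, and also runs 1874 nt past the end of the spliced messenger Trem2-201. The tables do not separate reads in the intron from reads in this downstream tail. The spliced coding transcripts Trem2-201 and Trem2-202 took 3.79% and 2.82% of the gene's counts in replicate 1, 12.9% and 5.67% in replicate 2, and 15.0% and 7.33% in replicate 3. Replicate 1 thus had the highest retained-intron share, with intervals that did not meet those of the other libraries. Fabp5-202 (3238 nt) keeps introns 1 and 2 of the 3 introns of Fabp5-201, which took the remaining 12.5%, 8.80% and 11.4% of counts.

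Of the other members, 4 have annotated retained-intron transcripts with lower shares. Apoe-211 holds intron 3 of Apoe-201 in full. The annotated models of Gpnmb, Cd9 and Lpl hold no whole intron of Gpnmb-201, Cd9-201 or Lpl-201, so their shares go by annotation only. Gpnmb had 20.1%, 17.4% and 13.6% (17.0% ± 3.28, n = 3), mostly on Gpnmb-205 (1832 nt, 1 exon at the start of the gene), while the full messenger Gpnmb-201 took 74.7%, 76.6% and 81.1%. Cd9 had 20.9%, 29.1% and 17.2% (22.4% ± 6.12), with Wilson intervals as wide as 11.5 to 32.4% in replicate 1 at this depth. Lpl had 8.21%, 12.04% and 5.83% (8.69% ± 3.13) and Apoe 5.03%, 2.13% and 3.02% (3.39% ± 1.48). The median of the 6 genes was 19.7%. As a share of TPM the means were 36.9% for Gpnmb, 33.9% for Cd9, 8.18% for Lpl and 3.93% for Apoe.

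Lpl had the largest share of a further class, targets of nonsense-mediated decay (the pathway that removes transcripts with an early stop codon). Lpl-203, so annotated, took 18.4%, 33.7% and 34.9% of Lpl counts (29.0% ± 9.21, n = 3), lowest in replicate 1. As a share of TPM its mean was 46.6%, beside 43.8% for the coding Lpl-201. The class took 2.21% of Tyrobp counts and 0.44% of Gpnmb counts, and 8.53% and 2.59% in the second quantification. Gpnmb-202, of this class, took 7.22% of the Gpnmb TPM, and 24.9% in the second quantification. Transcripts of Plin2 without an annotated reading frame took 23.4%, 21.2% and 12.7% (19.1% ± 5.63). No retained-intron transcript is annotated for Tyrobp, Spp1, Lgals3 and Plin2, so for these genes the tables cannot show unspliced RNA.

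Within the coding transcripts of Spp1, Spp1-204, which starts 1074 nt downstream of Spp1-201, took 61.9%, 67.9% and 67.5% of the counts and Spp1-201 took 35.5%, 30.1% and 30.5%. Tyrobp-201 took 74.5%, 44.7% and 17.8% of Tyrobp counts in replicates 1, 2 and 3, and Tyrobp-202 took 22.1%, 53.0% and 81.3%. The starts of these transcripts differ by 28 nt, and the deposited posterior SD of each was 19.6 to 22.7 counts on a gene total of 112 to 146, so the tables do not resolve them.

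**Figure D2:**
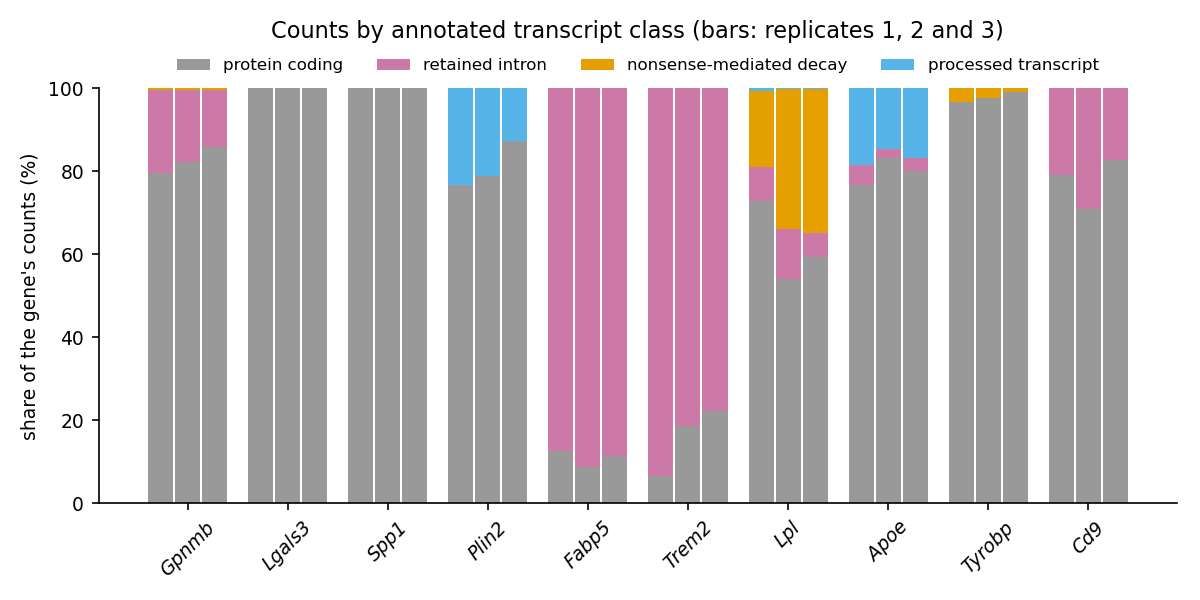
Share of each gene's transcript counts in percent by annotated transcript class, with 3 stacked bars per gene for replicates 1, 2 and 3. Retained-intron transcripts fill most of the Trem2 and Fabp5 bars and a smaller part of the Gpnmb, Cd9, Lpl and Apoe bars, and transcripts marked for nonsense-mediated decay stand out in Lpl.

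The second deposited quantification, in the format of kallisto, changed the levels of some members. It gave Lgals3 2954 ± 753.6 TPM (n = 3), 6.83-fold its level in the RSEM-format table and above Gpnmb at 2341 ± 709.4 TPM. A 210 nt transcript, Lgals3-206, carried 82.6% of the Lgals3 TPM there and 2.504% in the RSEM-format table. On counts, which do not weight short transcripts, the ratio of the tables was 3.02 for Lgals3, 4.26 for Tyrobp and 4.28 for Cd9, against a median of 1.64 (quartiles 1.41 and 2.16) over 13511 genes. The kallisto-format counts of Tyrobp were 382, 625 and 688. Trem2 (ratio 1.28) and Fabp5 (1.22) lay below the lower quartile. The retained-intron shares of counts for Trem2 (81.2% ± 9.24) and Fabp5 (87.8% ± 2.00) lay within 1 SD of those above. As a mean share of TPM in the kallisto-format table, Trem2-203 took 45.85% of Trem2 and Fabp5-202 took 65.22% of Fabp5. The share of counts was 67.0% ± 3.41 for Cd9 and 21.8% ± 7.70 for Lpl there, unlike those above.

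**Figure D3:**
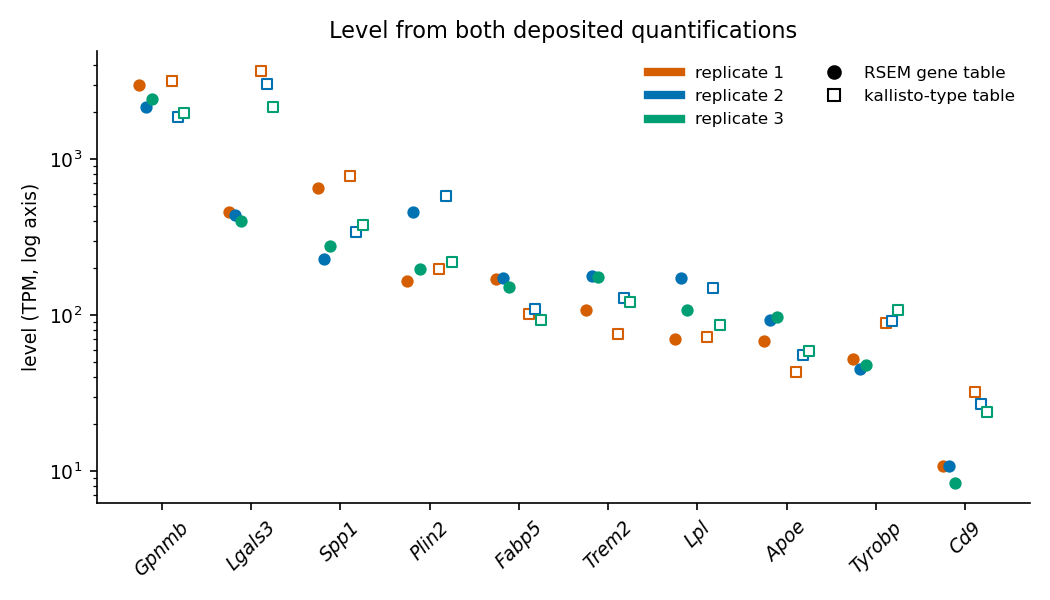
Level of each gene in TPM (vertical log axis) in the RSEM-format table (filled circles) and in the kallisto-format table (open squares), coloured by library. Lgals3 is 6.83-fold higher in the kallisto-format table, and Tyrobp and Cd9 are also higher there.

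The only recorded difference between the libraries is the amount of RNA, so the change with it was fitted across all genes. Of the 10 genes, Spp1 rose and Lpl and Plin2 fell with more RNA, by edgeR's quasi-likelihood test at an adjusted p under 0.05 (Benjamini-Hochberg over 13993 genes). In all, 1032 genes passed (7.38%), 633 of them higher (4.52%) and 399 lower (2.85%). With 1 residual degree of freedom the fit cannot tell the RNA amount from any other difference between the libraries. The test also pools the spread over genes, so an SE is largely not a gene's own. It was 0.129 for both Plin2 and Spp1, whose slopes moved by more than that when a library was left out (below).

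Plin2 fell by 0.91 log2 units per doubling of RNA (SE 0.13, adjusted p = 1.77e-05, edgeR). Its counts were 1130, 4779 and 2111 in replicates 1, 2 and 3, lowest with the most RNA and highest with the least. The slope was -0.59 without replicate 2 and -1.23 without replicate 1. Lpl fell by 0.74 log2 units per doubling (SE 0.13, adjusted p = 0.000279, edgeR) on 1219, 4093 and 2441 counts in the same order of libraries. Its slope was between -0.69 and -0.79 when a library was left out.

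Spp1 rose by 0.58 log2 units per doubling (SE 0.13, adjusted p = 0.0042, edgeR). This rested on replicate 1. Its log2 ratio was 1.18 over replicate 2 and 1.02 over replicate 3, whereas that of replicate 2 over replicate 3 was -0.15, and the slope was 0.15 without replicate 1 and 1.01 without replicate 2. With kallisto-format counts the adjusted p of Spp1 was 0.0562 (edgeR), and over the alternatives it ran from 9.18e-08 to 0.0562. Gm42793, the gene that lies inside Spp1, had a slope of 0.39 (SE 0.13, adjusted p = 0.0521, edgeR). Beside the high Spp1 level in replicate 1, the 10 macrophage markers summed to 3703 TPM there and to 2249 and 2758 in replicates 2 and 3. In the fit on RNA amount, which scales between libraries, those markers had a median slope of 0.01. Of them 1 was called higher and 0 lower (edgeR), and their part in the Spp1 change was not tested. Leaving out the ribosomal DNA locus genes, which also set replicate 1 apart, gave Spp1 a slope of 0.57, Lpl -0.74 and Plin2 -0.91. That fit changes little but the scaling of the libraries, and it moved the slopes of all 10 genes nearly alike. It could not show the part of the ribosomal difference in these changes, which was not tested.

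The other 7 genes did not pass. Apoe had a slope of -0.41 (SE 0.15, adjusted p = 0.0977, edgeR), of -0.08 without replicate 1 and -0.75 without replicate 2. Trem2 had a slope of -0.30 (SE 0.13, adjusted p = 0.147, edgeR), and Fabp5 one of -0.25 (SE 0.13, adjusted p = 0.232, edgeR), of -0.39 without replicate 1 and -0.11 without replicate 2. With the RNA amount entered in µg in place of doublings, Apoe (adjusted p = 0.00366) and Trem2 (adjusted p = 0.0257) also passed in edgeR, but so did 3042 of all genes. Over the alternatives the adjusted p ran from 0.00366 to 0.255 for Apoe and from 0.0257 to 0.314 for Trem2. Gpnmb had a slope of 0.05 (SE 0.14), Tyrobp of -0.03 (SE 0.20), Lgals3 of -0.09 (SE 0.13) and Cd9 of -0.13 (SE 0.23), all within the middle 50% of genes (-0.23 to 0.20).

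**Figure D4:**
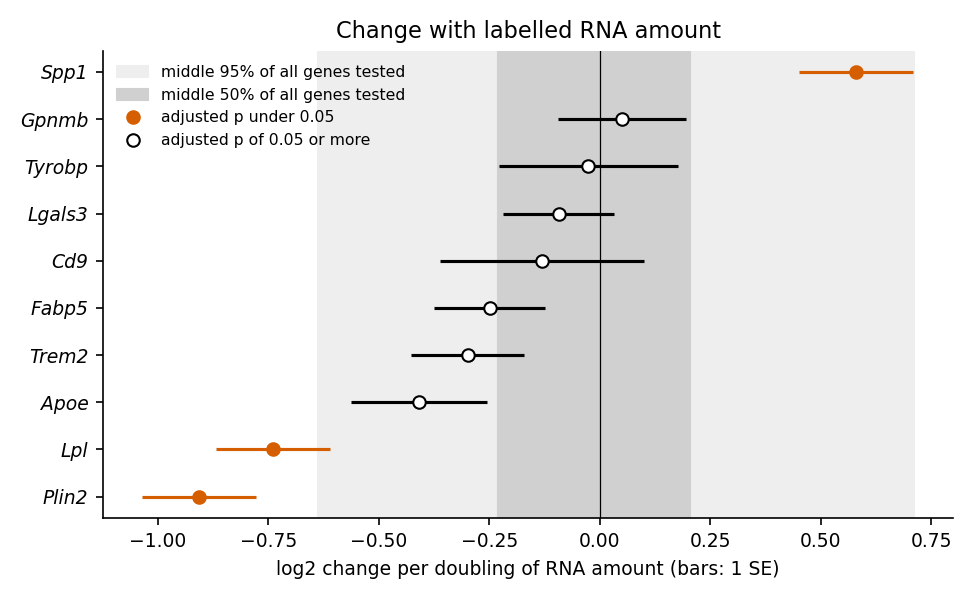
Fitted change of each gene per doubling of the labelled RNA amount (horizontal axis, log2 units, bars of 1 SE), with orange points where the adjusted p was under 0.05 and grey bands for the middle 50% and 95% of the 13993 genes tested. Spp1 lies to the right and Lpl and Plin2 to the left, the latter pair outside the band of 95%.

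Related genes were described on 12 lists (167 genes), of which 133 (79.6%) reached 1 TPM. The share was 32.9% over all genes of at least 300 nt and 50.5% over the protein-coding ones. Of the 131 tested for RNA amount, 7 rose and 10 fell (edgeR, with backgrounds of 4.52% and 2.85%). Many of these 17 slopes lean on a library: 11 moved by over 1.5 times without replicate 1 and 7 without replicate 2, and none of the 17 changed sign. Without replicate 3 the number was 0 by design, since its amount is the middle one in doublings and hardly enters the slope. DESeq2 called 8 of the 131, against 17 in edgeR. They were 2 genes each of the nuclear receptor and scavenger receptor lists and 1 each of the TYROBP signalling, lipoprotein, MiT/TFE and osteopontin receptor lists. DESeq2 called 0 in the TREM and CD300, lysosome and tetraspanin lists, where edgeR called 1, 2 and 2 and an unadjusted p under 0.05 was found for 2, 6 and 2 genes.

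The signalling arm of the receptor was present. Of 24 genes for TYROBP signalling, 23 reached 1 TPM, with a median of 88.8 TPM. Syk, the kinase that docks on TYROBP, stood at 593.4 ± 138.1 TPM, Malt1 at 515.2 ± 353.5 and Inpp5d (the phosphatase SHIP1, a brake on this pathway) at 432.8 ± 26.6, and the kinase Fgr was lowest at 0.338 ± 0.071. Malt1, Grb2 and Bcl10 rose with more RNA (slopes 0.61, 0.49 and 0.47, edgeR), and none of the 23 tested fell. Without replicate 1 the slopes of Malt1 and Bcl10 were 0.12 and 0.30, and without replicate 2 that of Malt1 was 1.09. Among the other TREM and CD300 family receptors, 7 of 12 reached 1 TPM. Cd300lf (180.5 ± 6.75 TPM), Cd300a (98.5 ± 6.06) and Cd300c2 (90.0 ± 16.0) led, and Trem3 had no counts. Of 7 tested, Cd300ld fell (slope -0.60) and none rose.

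Partners of Apoe and Lpl in lipoprotein traffic were uneven, with 10 of 17 at 1 TPM or more. Lrp1, an endocytic receptor for apolipoprotein E, stood at 659.0 ± 213.4 TPM, the cholesterol exporter Abca1 at 427.1 ± 54.7 and the sterol 27-hydroxylase Cyp27a1 at 304.5 ± 25.7. Apoc1, a neighbour of Apoe in the apolipoprotein cluster, had no counts. Lrp1 fell with more RNA (slope -0.75), the only called gene of 9 tested, and its slope was -0.48 without replicate 1. Of the lipid-sensing nuclear receptors and SREBP genes, 15 of 18 reached 1 TPM. Insig1 (138.0 ± 70.1 TPM) rose (slope 0.65) and Fasn (-0.63) and Srebf1 (-0.48) fell, of 15 tested. Without replicate 1 the slopes of Fasn and Srebf1 were -0.02 and -0.08, and without replicate 2 they were -1.26 and -0.88. Nr1h2, which encodes the oxysterol receptor LXRβ, stood at 108.7 ± 7.44 TPM, and Ppara had no counts.

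Scavenger and phagocytic receptors reached 1 TPM in 12 of 15 cases. Stab1 (1638 ± 529.7 TPM), Mertk (297.0 ± 17.3) and Mrc1 (284.6 ± 31.9) led and Timd4 was lowest at 0.058 ± 0.10. Cd36, the fatty acid translocase, fell with more RNA like Lpl and Plin2 (slope -0.74, adjusted p = 0.000439, edgeR) and so did Stab1 (-0.58), and none of the 12 tested rose. Its levels were 80.0, 169.7 and 68.3 TPM in replicates 1, 2 and 3, so the high library was replicate 2, as for Plin2 and Lpl, and the slope of Cd36 was -0.27 without it and -1.20 without replicate 1.

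Lipid droplet and lipolysis genes reached 1 TPM in 14 of 20 cases with a median of 9.51 TPM, and the droplet protein of fat cells, Plin1, had no counts. Soat1, which esterifies cholesterol for storage, led at 268.8 ± 24.1 TPM, followed by the triglyceride enzyme Dgat1 (106.5 ± 29.4) and the acyl-CoA ligase Acsl3 (34.4 ± 18.4). None of the 14 tested passed in edgeR, 3 had an unadjusted p under 0.05, and DESeq2 called none. Of the fatty acid binding proteins other than Fabp5, Fabp4 stood at 314.8 ± 103.9 TPM, Fabp3 at 1.36 ± 0.27, and the remaining 6 of 8 had no counts.

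Lysosomal genes were all above 10 TPM (20 of 20, median 122.3), led by Psap (1774 ± 181.7 TPM), Ctsb (919.6 ± 146.8) and Ctsd (464.8 ± 119.2). Of 20 tested, Lamp2 rose (0.46) and Ctsd fell (-0.40), with slopes of 0.25 and -0.77 without replicate 1 and a Ctsd slope of -0.03 without replicate 2. The 7 genes for the MiT/TFE factors, which drive lysosomal genes and Gpnmb, and for folliculin and its partners all exceeded 10 TPM, led by Fnip2 (739.6 ± 96.3 TPM), Flcn (188.7 ± 20.8) and Fnip1 (140.8 ± 29.3), with Tfeb lowest at 52.5 ± 2.21. Tfec rose (0.67), with slopes of 0.17 without replicate 1 and 1.17 without replicate 2, and none of the 7 fell.

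Among the families of single members, 11 of 11 other tetraspanins reached 1 TPM. Cd37 (173.6 ± 38.9 TPM), Cd53 (42.7 ± 18.9) and Tspan14 (39.3 ± 2.29) led, Tspan33 was lowest at 2.42 ± 0.32, and Cd151 (-0.78) and Cd37 (-0.46) fell of 11 tested, with slopes of -0.43 and -0.19 without replicate 1 and a Cd37 slope of -0.73 without replicate 2. Of 7 other galectins, 4 reached 1 TPM, namely Lgals8 (180.9 ± 41.2 TPM), Lgals9 (31.1 ± 8.52), Lgals1 (16.9 ± 4.04) and Lgals4 (15.2 ± 3.44), and Lgals2 had no counts. None of the 4 galectins tested passed in edgeR, at an unadjusted p under 0.05 or in DESeq2. The receptors of osteopontin all reached 1 TPM (8 of 8), led by Itga4 (316.2 ± 160.4 TPM), Itga5 (235.6 ± 73.9) and Cd44 (134.6 ± 44.5), with Itgb3 lowest at 8.39 ± 1.53. Itga4 rose (0.54) and Itga9 fell (-0.45) of 8 tested.

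**Figure D5:**
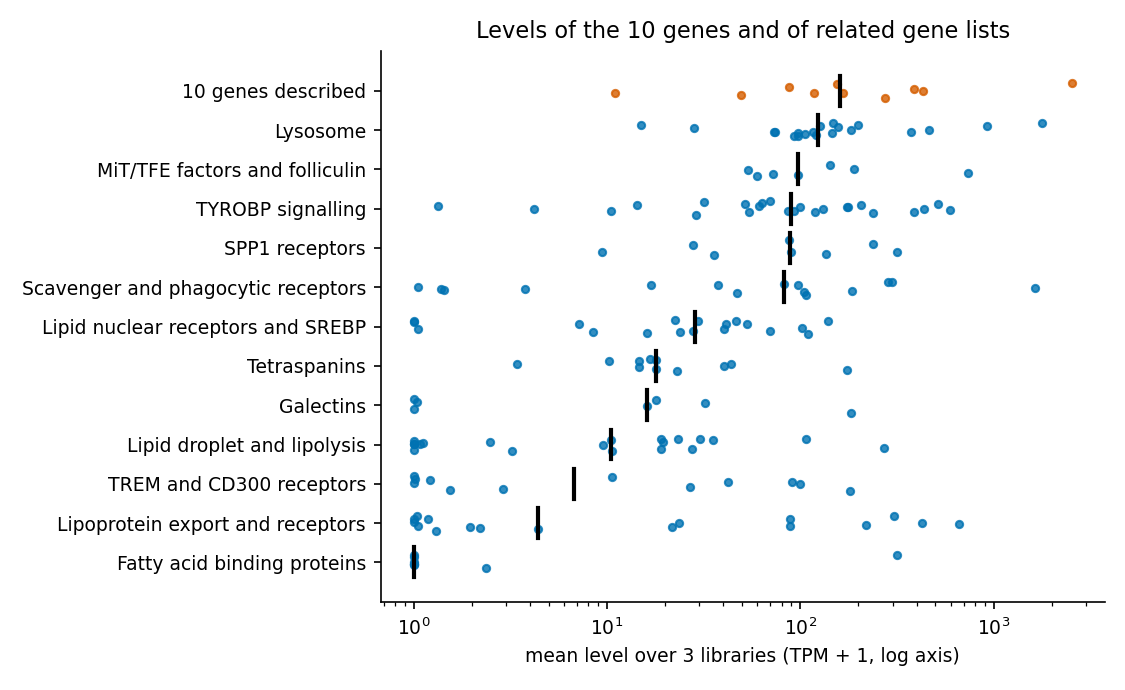
Mean level over 3 libraries of the 10 genes (orange) and of the genes of 12 related lists (blue), as TPM + 1 on a horizontal log axis, with the median of each list as a black bar. The 10 genes have a median of 160 TPM, and the lysosomal genes come next with 122.3 TPM.

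Markers of other cell types were mostly near 0. Of 53 such markers on no related list, 11 reached 1 TPM, 2 reached 10 TPM and 13 had no counts (median 0.108 TPM). They include neutrophil, dendritic cell, stromal and endothelial cell and lymphocyte markers. Of these, Kdr (5.23 ± 1.83 TPM), Zbtb46 (1.95 ± 0.49) and Ngp (1.87 ± 0.88) reached 1 TPM. Of 9 osteoclast markers, 4 reached 1 TPM, led by Atp6v0d2 (63.8 ± 14.8 TPM) and Nfatc1 (28.6 ± 4.79). Atp6v0d2 and Nfatc1 were the 2 of the 53 markers that reached 10 TPM. Others of the osteoclast list were lower, such as Acp5 (0.84 ± 0.85) and Ctsk (2.16 ± 0.16), and Oscar had no counts. The osteoclast list summed to 109.2, 100.9 and 83.7 TPM in replicates 1, 2 and 3. Of 8 adipocyte markers, Lipe alone reached 1 TPM (9.57 ± 0.56), and Adipoq, Lep, Plin1, Cidec and Cidea had no counts. The sum of that list was 9.65, 9.66 and 10.3 TPM, of which Lipe made up 9.02, 9.54 and 10.2, and its part in the Plin2 and Lpl differences was not tested. Of 8 microglial markers, 4 reached 1 TPM, led by Fcrls (9.87 ± 3.97), and Sall1 had no counts. The 3 microglial genes tested for RNA amount had a median slope of 0.26, with 0 called and 1 at an unadjusted p under 0.05 (edgeR). The microglial list summed to 24.03, 10.63 and 12.82 TPM, highest in replicate 1 as Spp1 was, and its part in the Spp1 change was not tested. Melanocyte markers, listed because melanocytes express Gpnmb, reached 1 TPM in 0 of 5 cases and summed to at most 0.751 TPM.

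The genes whose pattern over the 3 libraries was nearest to that of Trem2, by root mean square distance of centred log2(TPM + 1) among 8185 genes with at least 10 TPM, were Gm16861 (0.0062), Klc2 (0.0096) and Tut1 (0.014). For Gpnmb they were Zfp871 (0.0013), Gfm2 (0.0022) and Tcf12 (0.0026). Over only 3 libraries such likeness is common, with 234 genes within 0.1 of Trem2 and 1506 within 0.1 of Gpnmb. TPM is not scaled further between libraries, so a shift shared by many genes also enters the distance. With scaling between libraries the log2 ratios of Gpnmb were 0.12 for replicate 1 over replicate 2 and 0.00013 over replicate 3. That of replicate 2 over replicate 3 was -0.11.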

How the data were processed

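Chromatin-fraction RNA of 3 libraries of 1 group was analysed. For each library the authors deposited gene and transcript tables with expected counts, TPM, an isoform percent and credibility bounds and posterior SDs (signal, not a test), in the columns RSEM writes, and a transcript table with estimated counts and TPM in the columns of kallisto, per the file headers. Other columns, such as lengths, were also deposited by the authors. Assembly mm10 and annotation M21 are named in the deposited readme files, and the sources used here do not give the aligner, versions or strand setting.

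Expected counts divided by effective length were scaled to TPM, leaving out genes whose mean length was below 300 nt, tRNA and spike-ins. Entries left out held 67.1%, 62.1% and 61.7% of the deposited TPM. Retained-intron shares needed at least 50 counts per gene. The slope on RNA amount, as log2 per doubling, came from edgeR 4.0.16 (filterByExpr, TMM factors 1.11, 0.931 and 0.964, quasi-likelihood F test, SE from the F statistic) under R 4.3.3. Expected counts were first rounded to whole numbers. P-values had Benjamini-Hochberg adjustment over all genes tested and a threshold of 0.05. The code was tested on simulated data. Ratios between libraries used a pseudocount of 1 and were centred on the median gene. Python 3.11.15 with pandas 2.3.3, scipy 1.17.1 and numpy 2.4.6 did the rest.

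The members, the related lists, the marker lists and the tests were chosen with earlier results of these data known. Named genes were all members, the 3 highest and the lowest gene of each related list, those changed with RNA amount (at most 3 per list and direction) and the 3 nearest in pattern to Trem2 and to Gpnmb. Some genes this rule names are not reported here. Acp5, Ctsk and other single markers were chosen after their values were seen. Alternatives were the deposited TPM, the posterior mean TPM, the kallisto-format table, genes of any length, no ribosomal DNA locus genes, shares of TPM, DESeq2 1.42.0, RLE factors, fitting without a filter on counts, RNA amount in µg, and leaving out each replicate. Fitting RNA amount over genes of any length was added after seeing the data.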

Additional observations from a re-analysis of the deposited data

How the results depend on the processing

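The median level of the 10 genes was 160 TPM, 58.5 with the deposited TPM, 105.9 with the kallisto-format table, 58.6 with genes of any length, 202.9 without the ribosomal DNA locus genes, and 152.2 to 170.2 when a replicate was left out. These scalings move all genes of a library by 1 factor, except in the kallisto-format table. Of the 10 genes, 3 kept their place in the order by level in the kallisto-format table and 6 to 10 when a replicate was left out, with the lowest count without replicate 1. The median retained-intron share of 6 genes was 19.7%, 44.4% with the kallisto-format table, 35.4% as a share of TPM and 17.9 to 21.9% when a replicate was left out. With more RNA 1 gene of the 10 rose and 2 fell. The number that rose was 0 with kallisto-format counts (edgeR), where Spp1 kept an unadjusted p of 0.00107, and the number that fell was 4 with the amount in µg. Over all genes, 1032 passed, 380 with DESeq2, 369 with kallisto-format counts and 3042 in µg. Of these 633, 276, 262 and 1516 rose and 399, 104, 107 and 1526 fell. The causes were not tested. The other 40 summary values and 160 of 210 single-gene values tried under another setting stayed on their side of the threshold or moved by less than the spread, and no called value changed sign. Among slopes that were not called, Tyrobp turned from -0.03 to 0.01 without replicate 1, and without replicate 2 Gpnmb turned from 0.05 to -0.0059, Lgals3 from -0.09 to 0.03 and Cd9 from -0.13 to 0.10. Leaving out a replicate leaves 2 libraries and no residual degree of freedom for the RNA amount, so those slopes carry no test. Leaving out replicate 3, the middle amount in doublings, returns nearly the fitted slope by design. No paired analysis was possible because all 3 libraries belong to 1 group, so no groups share replicate numbers. Depth limited Cd9 and Tyrobp, with under 150 counts per library.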
